A study of Mus musculus with 4 samples.

Results

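The genes described here are the gene names best covered on a mouse genome array, those with at least 10 separate probes on one of the autosomes. They number 177 of the 20481 autosomal gene names that the array design carries, and they hold 2551 of the 42860 probes with such a name. The rule used the number of probes and no measured ratio. It set aside 5 further names that also reached 10 probes, namely Dlg2, Lrp1b, Pcdha4-g, Pcdha1 and Pcdh9. The samples were DNA from mouse liver cells labelled with the genotype TAK1LPC-KO_RIP3-_-, in which TAK1 is deficient in liver parenchymal cells (LPC) and Rip3 is knocked out as well. All 4 samples are labelled with both changes, so there was no second genotype to compare. Each sample was labelled with Cy5 and hybridised on its own array beside a Cy3-labelled pool from 4 normal livers, which served all 4 arrays as the only control. The DNA came from sections of fixed tissue, in which any cell of the section can contribute DNA, and the identity of the cells cannot be checked on DNA with marker genes.

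TAK1 is a kinase that passes signals from the TNF receptor on to NF-kB and JNK, and RIP3 is a kinase needed for necroptosis, a lytic form of cell death. Array comparative genomic hybridisation lets sample and reference DNA compete for the same probe, so that a higher ratio goes with more copies of that stretch in the sample. A log2 ratio of 0 stands for equal signal after centring. Long genes are informative in such an experiment because many probes read the same transcription unit. Several of them, such as Dpyd and Lsamp, also have human counterparts at common fragile sites, which break readily under replication stress, and many others encode adhesion molecules, channels and scaffold proteins of neurons.

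Probes at the limits of 4 of these genes are shown first, because the results turn on how widely probes of a single gene can differ. Each is the whole 60-base probe as the array files give it, with its strand not stated there, and capitals mark its longest unbroken run of A and T.
0610007P08Rik lowest probe: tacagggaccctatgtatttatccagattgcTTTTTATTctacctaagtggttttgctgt
0610007P08Rik highest probe: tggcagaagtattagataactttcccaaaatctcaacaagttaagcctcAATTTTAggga
Inpp4b highest probe: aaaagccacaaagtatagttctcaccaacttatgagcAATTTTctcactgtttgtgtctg
AK133186 lowest probe: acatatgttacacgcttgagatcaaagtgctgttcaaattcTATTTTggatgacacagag
Rbfox1 lowest probe: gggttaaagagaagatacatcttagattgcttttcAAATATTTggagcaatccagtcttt
Rbfox1 highest probe: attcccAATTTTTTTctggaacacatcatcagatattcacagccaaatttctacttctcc
On mouse build mm9 the 0610007P08Rik probes lie at chr13:63946903-63946962 and chr13:63972792-63972851. The Inpp4b probe lies at chr8:84573187-84573246. The AK133186 probe lies at chr1:90553135-90553194, and those of Rbfox1 lie at chr16:6246626-6246685 and chr16:6012125-6012184. Whether these positions are exonic or intronic was not analysed here. The mean log2 ratios of these probes over 4 arrays were, in the order printed, 0.24, 0.85, 2.42, -0.97, -1.54 and 1.03. Both 0610007P08Rik probes were thus above the pool, whereas the pair of Rbfox1 lay on opposite sides of it. GC content was nearly the same in all 6, between 33.3% and 36.7%.

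Gene ratios were the mean of a gene's probes on each array. Tests on them thus cover the spread over arrays and not that between probes of a gene. A gene was called higher or lower than the pool at an adjusted p under 0.05 and a mean at least 0.25 from 0, in limma's test over 20478 autosomal gene names. By that rule 15 long genes were higher and 6 were lower, which is 11.9% of the 177. Over all autosomal names 35.4% were called, 16.1% higher and 19.2% lower. The shares were not tested against each other, and without the size limit, with the spread modelled by the number of probes, 84 of the 177 were called beside 40.9% of all names. The median of the 177 means was 0.04, beside -0.01 over all names. Means ran from -0.34 for AK133186 to 0.55 for 0610007P08Rik, and 156 of the 177 lay within 0.25 of 0. The sign was the same on all 4 arrays in 100 genes, 64 of them above and 36 below the pool. Centring the arrays on the mode in place of the median gave 9 higher and 9 lower, and the values of the deposited table gave 14 and 11. Another background correction (normexp) gave 5 and 1, with an offset of 50 that draws ratios towards 0. Leaving out replicate 4 left 12 calls, and the 6 lower calls became 3, 3 and 2 without replicate 1, 2 or 4. The share of all names called under these alternatives was not counted, so the changes cannot be read as particular to long genes.

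**Figure D1:**
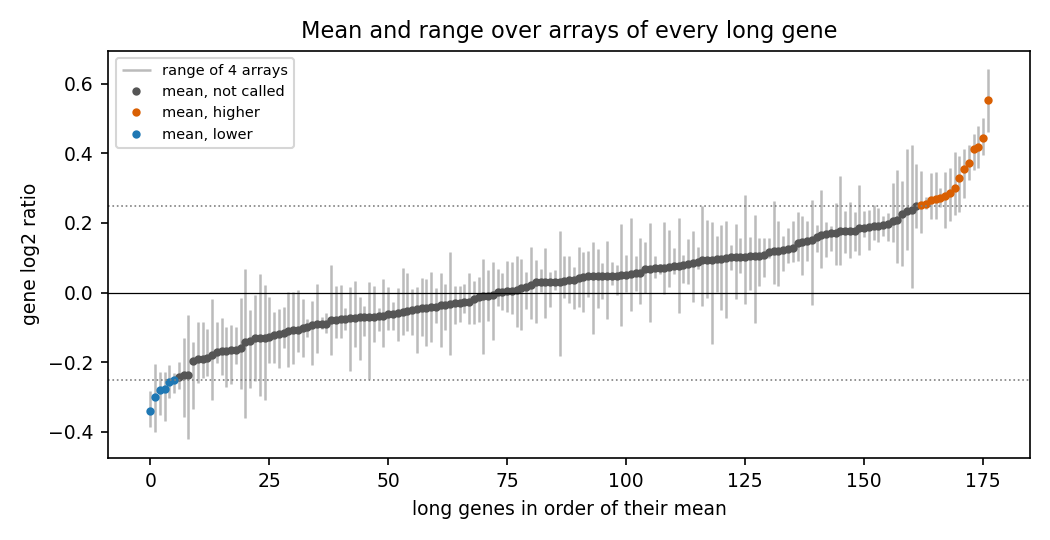
Mean gene log2 ratio (vertical axis, sample over pool) of all 177 long genes in rising order (horizontal axis), with grey bars for the range of the 4 arrays and dotted lines at the size limit of 0.25 on either side of 0. The 15 genes called higher are orange, the 6 called lower are blue, and the 156 others lie between the dotted lines.

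The highest gene was 0610007P08Rik, which RefSeq now lists as Ercc6l2, a helicase-like protein of the SNF2 family linked to DNA repair. Its ratios were 0.55, 0.46, 0.64 and 0.56 in replicates 1 to 4, for a mean of 0.55 ± 0.07 (SD, n = 4) and an adjusted p of 0.0020 (limma). All 4 arrays were well clear of the limit, and all 12 of its probes had means above 0. It is the only long gene whose probes all lie on 1 side of 0. It spans chr13:63930302-64000217 on mm9, which makes it one of the 10 long genes whose probes span under 100 kb. Its probes ranged from 0.24 to 0.85, and the mean without its most extreme probe was 0.58.

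Spock3, which encodes the secreted proteoglycan testican-3, had ratios of 0.50, 0.44, 0.40 and 0.43. Its mean was 0.44 ± 0.04 (SD, n = 4; limma adjusted p = 0.0032), from 17 probes on chromosome 8, of which 16 were above 0. The arrays lay close together, and the same was true of the next gene. Fchsd2, an F-BAR and SH3 domain protein of endocytosis and actin assembly, had 0.39, 0.36, 0.48 and 0.45. Its mean was 0.42 ± 0.05 (SD, n = 4; limma adjusted p = 0.0039), from 14 probes on chromosome 7.

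Pard3 encodes a scaffold of the complex that sets up cell polarity and tight junctions in epithelia. It had ratios of 0.35, 0.41, 0.46 and 0.44, with a mean of 0.41 ± 0.05 (SD, n = 4; limma adjusted p = 0.0039), and 22 of its 23 probes were above 0. Nrp1, a co-receptor for semaphorins and VEGF that is abundant on liver sinusoidal endothelium, had 0.23, 0.39, 0.33 and 0.36. Its mean was 0.33 ± 0.07 (SD, n = 4; limma adjusted p = 0.0090), from 13 probes. Nrp1 begins 0.882 Mb beyond the last Pard3 probe on chromosome 8, so the genes are neighbours and their values are not independent.

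Inpp4b encodes a phosphatase that removes a phosphate from a PI3-kinase product. Its array values were 0.35, 0.32, 0.42 and 0.38 (mean 0.37 ± 0.04, SD, n = 4; limma adjusted p = 0.0052). Its 23 probes ran from -1.04 to 2.42, the latter being the Inpp4b probe printed above. Without its most extreme probe the mean was 0.28, and with only probes well above background in both channels it was 0.24 and not called.

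Dpyd, the rate-limiting enzyme of pyrimidine breakdown and a gene that liver expresses strongly, had 0.41, 0.37, 0.27 and 0.37. Its mean was 0.35 ± 0.06 (SD, n = 4; limma adjusted p = 0.0066), and 12 of its 14 probes were above 0. Smg1, the kinase that starts nonsense-mediated mRNA decay, had 0.25, 0.22, 0.40 and 0.33 (mean 0.30 ± 0.08, SD, n = 4; limma adjusted p = 0.013). Both slides showed the same sign for each of these genes.

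Gcap14, now Ccser2 in RefSeq, had ratios of 0.29, 0.21, 0.30 and 0.36, and Sox6, a transcription factor of cartilage, muscle and erythroid cells, had 0.18, 0.26, 0.35 and 0.32 from 30 probes. Their means were 0.29 ± 0.06 and 0.28 ± 0.07 (SD, n = 4; limma adjusted p = 0.014 and 0.016). Some arrays of each were under 0.25, and Gcap14 lost its call in 7 of 19 alternatives and Sox6 in 9 of 20. Without its most extreme probe Gcap14 had a mean of 0.17 and Sox6 one of 0.24. Cacna2d3, an auxiliary subunit of voltage-gated calcium channels, had 0.30, 0.26, 0.24 and 0.28. Lingo2, a leucine-rich repeat and immunoglobulin domain protein of neurons, had 0.27, 0.24, 0.24 and 0.27. Their means were 0.27 and 0.26, and Cacna2d3 lost its call in 7 of 19 alternatives and Lingo2 in 11 of 20, among them the deposited table and each replicate left out. Vat1l, 2210408I21Rik and Agbl1 lay outside the rule for named genes and were added after their values were seen, with means of 0.27, 0.27 and 0.25.

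Of the 6 lower genes, AK133186 was lowest at -0.38, -0.28, -0.34 and -0.36, for a mean of -0.34 ± 0.04 (SD, n = 4; limma adjusted p = 0.0068). This name is an mRNA accession with 16 probes on chromosome 1, of which 15 were below 0. M73959, a name spread over 562 kb of chromosome 17 with 30 probes of other names inside, had -0.21, -0.40, -0.23 and -0.37, with a mean of -0.30 ± 0.10 (SD, n = 4; limma adjusted p = 0.015). The third, BC156654 on chromosome 12, had -0.23, -0.23, -0.30 and -0.35. All 4 arrays of these 3 names were below the pool.

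Chd5, a chromatin remodeller of neurons and testis that acts as a tumour suppressor, had -0.37, -0.23, -0.27 and -0.24, for a mean of -0.28 ± 0.06 (SD, n = 4; limma adjusted p = 0.015). Dst, the plakin that links cytoskeletal filaments to junctions, had -0.30, -0.28, -0.21 and -0.24. Kif26b, an atypical kinesin of cell adhesion and kidney development, had -0.24, -0.24, -0.29 and -0.23. These 3 genes are close to the limit, with means of -0.28, -0.26 and -0.25, and Chd5 without its most extreme probe had -0.21. Chd5 and Dst each lost the call in 8 of 19 alternatives and Kif26b in 10. Of the 21 called genes, 13 kept a mean at least 0.25 from 0 without their most extreme probe.

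**Figure D2:**
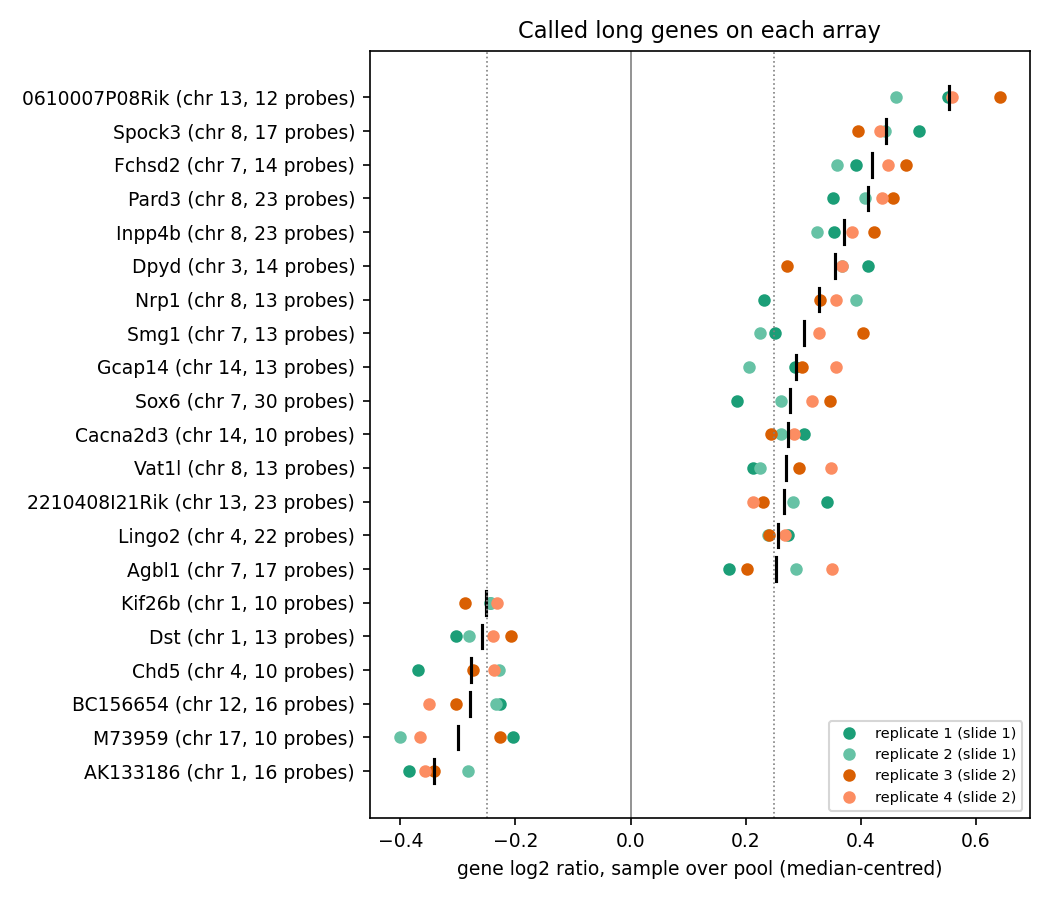
Gene log2 ratio (horizontal axis, sample over pool) of the 21 called long genes (rows, with chromosome and number of probes), with a point for each of the 4 arrays and a black bar for their mean. The points of every gene lie on 1 side of 0, and 0610007P08Rik lies farthest from it.

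By function, 64 of the 177 long genes fell in at least 1 of 12 gene lists and 113 in none. The calls of every list stand beside 35.4% of all autosomal names called, 16.1% higher and 19.2% lower. Neural and synaptic adhesion gave 11 long genes, of which 1 was higher (Lingo2, at the limit with 0.26) and 0 were lower, with a median of 0.08. Cntnap2, a neurexin relative of myelinated axons, had 0.16 in this list, and Sdk1, a synaptic adhesion protein, had -0.19. Ion channels gave 8 long genes with 1 higher (Cacna2d3) and 0 lower, and their median was 0.10. The pore-forming subunits Cacna1c and Cacna1d of L-type calcium channels differed in value, at 0.00 and 0.19. Cacna1d begins 0.46 Mb beyond the last Cacna2d3 probe on chromosome 14, so the values of these neighbours are not independent. Centred on its own chromosome, Cacna2d3 had 0.16 and was not called. Signalling enzymes and regulators gave 11 long genes with 0 calls in either direction, from -0.18 for Prkag2, a regulatory subunit of AMP-activated kinase, to 0.25 for Pde8a, a cAMP phosphodiesterase. For comparison, the median over all autosomal names was -0.01.

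Cytoskeleton, scaffold and vesicle proteins gave 10 long genes with 1 higher (Pard3) and 2 lower (Dst and Kif26b). Over all names 16.1% were higher and 19.2% lower. Pard3b, the paralogue of Pard3, had 0.06, 0.04, -0.16 and -0.08, on both sides of the pool. Extracellular matrix and glycan genes gave 7 long genes with 0 calls, from -0.11 for St6galnac3 to 0.12 for Lama2, a chain of muscle laminin. Transcription and RNA-binding factors gave 6 with 1 higher (Sox6). Axon guidance gave 3 with 1 higher (Nrp1), beside 0.07 for the netrin receptor Dcc. Receptor tyrosine phosphatases gave 2 (Ptprm and Ptprt) and cadherins 1 (Fat3), all uncalled.

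Genes with human counterparts at common fragile sites gave 7 long genes, among them Auts2, Dpyd, Immp2l, Lsamp, Macrod2 and Rora. Dpyd was called higher and 0 were called lower, with a median of 0.06. The list does not hold the large genes that the rule set aside by name, such as Lrp1b (21 probes, mean 0.05, not called). It therefore does not stand for all large genes at such sites. Lsamp, an IgLON adhesion protein with 30 probes, had 0.24, 0.22, 0.15 and 0.14, above the pool on all 4 arrays but under the size limit (mean 0.19, limma adjusted p = 0.047). Macrod2 had a mean of -0.08 and Immp2l one of 0.12. The list of liver metabolism and growth receptor genes met the rule with Dpyd alone. No list was tested as a set.

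Values of long genes differed by chromosome. Chromosome 8 held 8 of them and 5 of the 15 higher calls, Spock3, Pard3, Inpp4b, Nrp1 and Vat1l. The median of all 8 was 0.30, beside 0.16 over the 2829 probes of chromosome 8. The other 3 long genes of that chromosome had means of 0.12 (Ankrd11), -0.05 (Stox2) and -0.19 (ENSMUST00000127664). On chromosomes 13 and 14 the long genes had medians of 0.17 and 0.17, beside 0.16 and 0.12 over all probes, and on chromosome 1, with 22 long genes and 3 lower calls, -0.07 beside -0.09. The share of all names called on each chromosome was not counted, so calls by chromosome stand without a background. Gene mean and chromosome median had a Spearman rho of 0.36 over the 177 genes, which share arrays and neighbours and are no independent points.

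When each probe was centred on its own chromosome, 16 long genes were called, 10 higher and 6 lower, against 32.8% of all names, 14.7% higher and 18.1% lower. Of the 21 calls against the pool, 9 remained. They were the higher calls of 0610007P08Rik (0.38), Dpyd (0.38), Fchsd2 (0.37), Spock3 (0.28), Pard3 (0.25) and Smg1 (0.25) and the lower calls of Chd5 (-0.37), M73959 (-0.28) and AK133186 (-0.26). Inpp4b at 0.21 and Nrp1 at 0.17 were among the 12 that no longer passed. Chd5 moved the other way, farther from 0, since the median of chromosome 4 was 0.09. New among the 16 were 7 genes, with Shisa6, Prlr, Wdr7 and BC026439 higher and ENSMUST00000127664, ENSMUST00000133929 and Ece2 lower, named after their values were seen.

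To ask whether a long gene stands apart from the DNA beside it, its mean was set against the probes within 1 Mb on either side, on each array. Of 176 long genes with at least 5 such probes, 6 were higher than their flanks and 10 lower, beside 8.89% of the 180 names tested (3.33% higher, 5.56% lower), which are these genes and 4 of those set aside and so no independent background. Fchsd2 had the largest higher difference, 0.37 ± 0.04 (limma SE, n = 4; adjusted p = 0.00017), with 0.32 to 0.43 on single arrays. Its 96 flanking probes averaged 0.05, with 0.08 on the lower-coordinate and 0.02 on the higher-coordinate side. 0610007P08Rik was 0.35 ± 0.04 (limma SE, n = 4) above its flanks, which themselves averaged 0.20, and Spock3 was 0.31 ± 0.04 (limma SE, n = 4) above flanks of 0.13. These 3 genes were called in both tests. The other 3 above their flanks, named after their values were seen, were Crebbp, a histone acetyltransferase and transcriptional coactivator, at 0.30, Mdga2 at 0.30 and Ncoa1, a nuclear receptor coactivator, at 0.25. Mdga2 itself had a mean of only 0.04, beside 4 probes on one side and 1 on the other, at -0.26 each. Crebbp and Ncoa1 had gene means of 0.24 and 0.20.

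Pard3, Inpp4b and Nrp1 were not called against their flanks. Pard3 had 0.41 beside 0.22 and 0.38 on its sides, and Nrp1 had 0.33 beside 0.44 and 0.31. The DNA around these genes was thus above the pool too.

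Agbl4, a carboxypeptidase that trims glutamate chains from tubulin, had the largest difference from its flanks, but that difference depends on probes dim mainly in the pool. Its own ratios were 0.01, -0.06, 0.02 and -0.09, close to the pool, while the 76 flanking probes averaged 1.32, a difference of -1.35 ± 0.04 (limma SE, n = 4). On its higher-coordinate side 41 probes averaged 2.33, of which 33 were not well above background in both channels on all 4 arrays. The other 8 averaged 0.44, so that 2.33 is no exact level. Of the 41 probes, 29 were dim in the pool on every array, and 18 in the sample on at least 1 array. Among the flanking probes, 20 carry names of the Skint family, a cluster of near-identical immunoglobulin-like genes of skin and thymus. On the lower-coordinate side 35 probes averaged 0.13. With probes well above background alone the difference was -0.21 and Agbl4 was not called, with normexp it was -0.56, and with flanks of 2 Mb -0.91. Leaving out probes with a dim pool also leaves out high ratios by construction, so -0.21 is no exact level either. Ratios of probes in such a multigene family are uncertain, since copies can share signal.

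Erbb4, a receptor of neuregulins related to EGFR, had -0.11, -0.13, -0.09 and 0.02 itself. Its 10 flanking probes averaged 0.41, with 0.75 over 5 probes on one side and 0.08 over 5 on the other, for a difference of -0.49 ± 0.07 (limma SE, n = 4; adjusted p = 0.00092). With flanks of 2 Mb the difference was -0.07 (limma adjusted p = 0.25), and Erbb4 was not called. Over 176 long genes the gene mean and the flank mean had a Spearman rho of 0.43, as a description of points that share arrays.

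**Figure D3:**
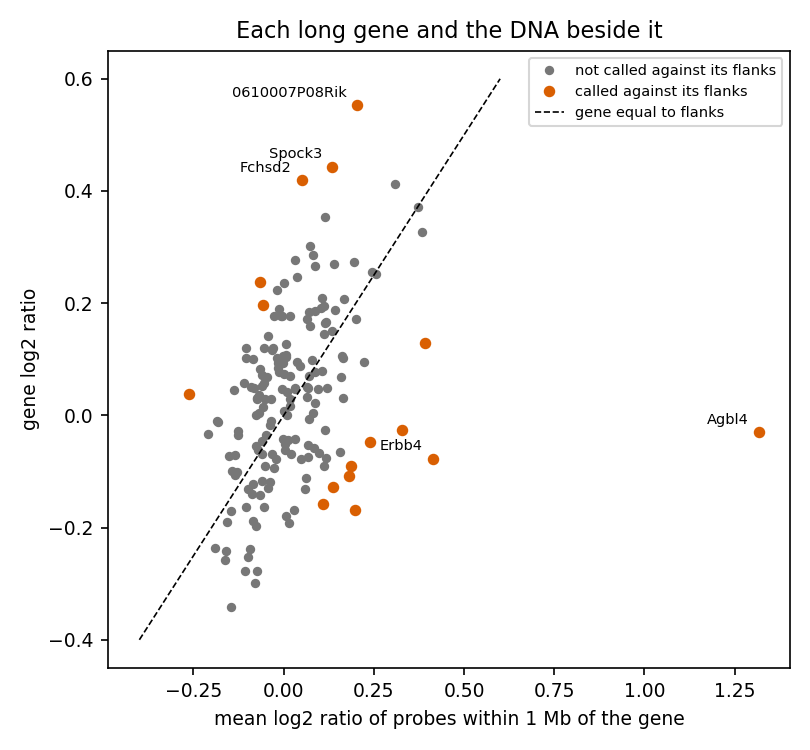
Mean log2 ratio of each long gene (vertical axis) against the mean of the probes within 1 Mb of it (horizontal axis), both over 4 arrays, with orange for the 16 genes called against their flanks and a dashed line where both are equal. Agbl4 lies far to the right at a flank mean of 1.32, which rests largely on probes dim in the pool, and 0610007P08Rik, Spock3 and Fchsd2 lie above the line.

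A change that covered only part of a gene would set its ends apart, so the probes in the lower-coordinate part of each gene's probe list were compared with the rest. The p-value covers the spread over arrays and not that between probes of a gene, which had a median SD of 0.33. Offsets of single probes that repeat on every array would also set parts apart. They cannot be told here from a change over part of a gene. The same holds for the test against flanks. The p-values of the main test against the pool also leave out the spread between probes. The parts differed in 37 of the 177 long genes, with the lower-coordinate part higher in 17 and lower in 20, beside 20.3% of the 182 names tested, again these genes and those set aside. Inpp4b had the largest difference. Its 11 lower-coordinate probes averaged 0.10 and the other 12 averaged 0.62, a difference of -0.52 ± 0.06 (limma SE, n = 4; adjusted p = 0.0017). Those 12 include the printed probe at 2.42, whose pool signal was well above background on only 3 arrays, and it raises their mean. Smg1 ran the other way, with 0.54 in the lower-coordinate and 0.10 in the higher-coordinate part (0.44 ± 0.06, limma SE, n = 4; adjusted p = 0.0051). Its higher call against the pool therefore rests mainly on 6 of its 13 probes.

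Cacnb4, a beta subunit of calcium channels, had 0.18 and -0.25 in its parts (difference 0.43 ± 0.06, limma SE, n = 4) and a mean of -0.06 over the whole gene. Cd36, a fatty acid transporter, showed the same kind of balance with -0.18 and 0.19, and a whole-gene mean of 0.00. In both genes the part means lay on opposite sides of the pool and balanced in the mean over all probes. Whether offsets of single probes gave this was not tested. With only probes well above background Cacnb4 had a whole-gene mean of 0.04, and without its outer probes 0.00. Other called genes, Fchsd2 (0.58 and 0.26), Dpyd (0.53 and 0.18) and Chd5 (-0.14 and -0.41), also had parts that differed, but with the same sign in both.

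**Figure D4:**
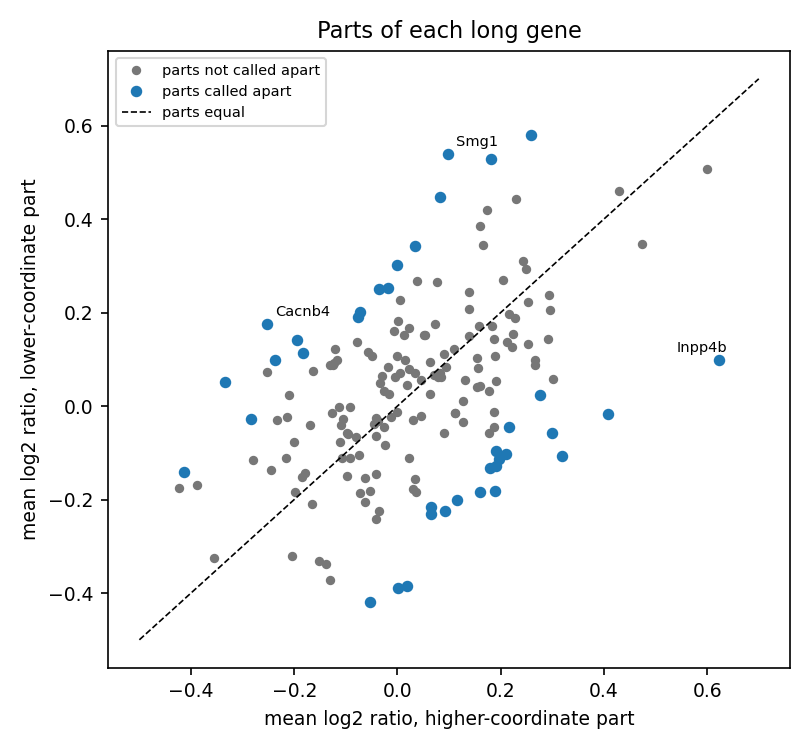
Mean log2 ratio of the lower-coordinate part of each long gene (vertical axis) against that of its higher-coordinate part (horizontal axis), over 4 arrays, with blue for the 37 genes whose parts were called apart and a dashed line where both are equal. Inpp4b lies below the line and Smg1 and Cacnb4 lie above it.

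Probes of the same long gene differed among themselves. The SD of probe means within a long gene had a median of 0.33. Over the 4 arrays a single probe of a long gene had a median SD of 0.19, and the gene mean, which averages its probes, one of 0.07. Of all variance between probes of long genes, a share of 0.117 lay between genes, with an SD of 0.13 between and 0.35 within genes. In genes with 5 to 9 probes that share was 0.24, and in genes with 3 to 4 probes it was 0.16. The SD of the 177 gene means was 0.15, and the probe SD divided by the root of the number of probes had a median of 0.088.

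Lhfpl3, a tetraspan membrane protein of the LHFP family, had the widest spread over probes, an SD of 0.88. One of its 12 probes had 1.06, 1.30, 5.19 and 3.47, and the pool signal of that probe was well above background on only 2 of the 4 arrays. With it the gene mean was 0.08 and without it -0.17. Inpp4b followed with an SD of 0.70. Its highest probe had 2.36, 2.79, 2.63 and 1.91, with 1 sign on all arrays, although its pool signal was well above background on only 3 of the 4. Rbfox1, a splicing factor of neurons and muscle, had an SD of 0.59. Its lowest probe, printed above, did not rise well above background in the sample on any array, so that its -1.54 gives no exact level. Each of these 3 genes thus has an extreme probe that was dim in a channel on at least 1 array.

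The narrowest spreads were those of Dock9, an activator of the GTPase Cdc42 (SD 0.17 over 15 probes), Med12l, a subunit related to the Mediator kinase module (0.18), and Tmeff2, a transmembrane protein with follistatin domains (0.18). Dock9 had 0.09, 0.18, 0.12 and 0.12 on the arrays. Tmeff2 had 0.25, 0.16, -0.04 and 0.00, lower on the second slide. The genes nearest to the pool were Bai3 (Adgrb3), an adhesion receptor of synapses, at 0.00, Cacna1c at 0.00 and Cd36 at 0.00. Their single arrays lay between -0.06 and 0.09.

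**Figure D5:**
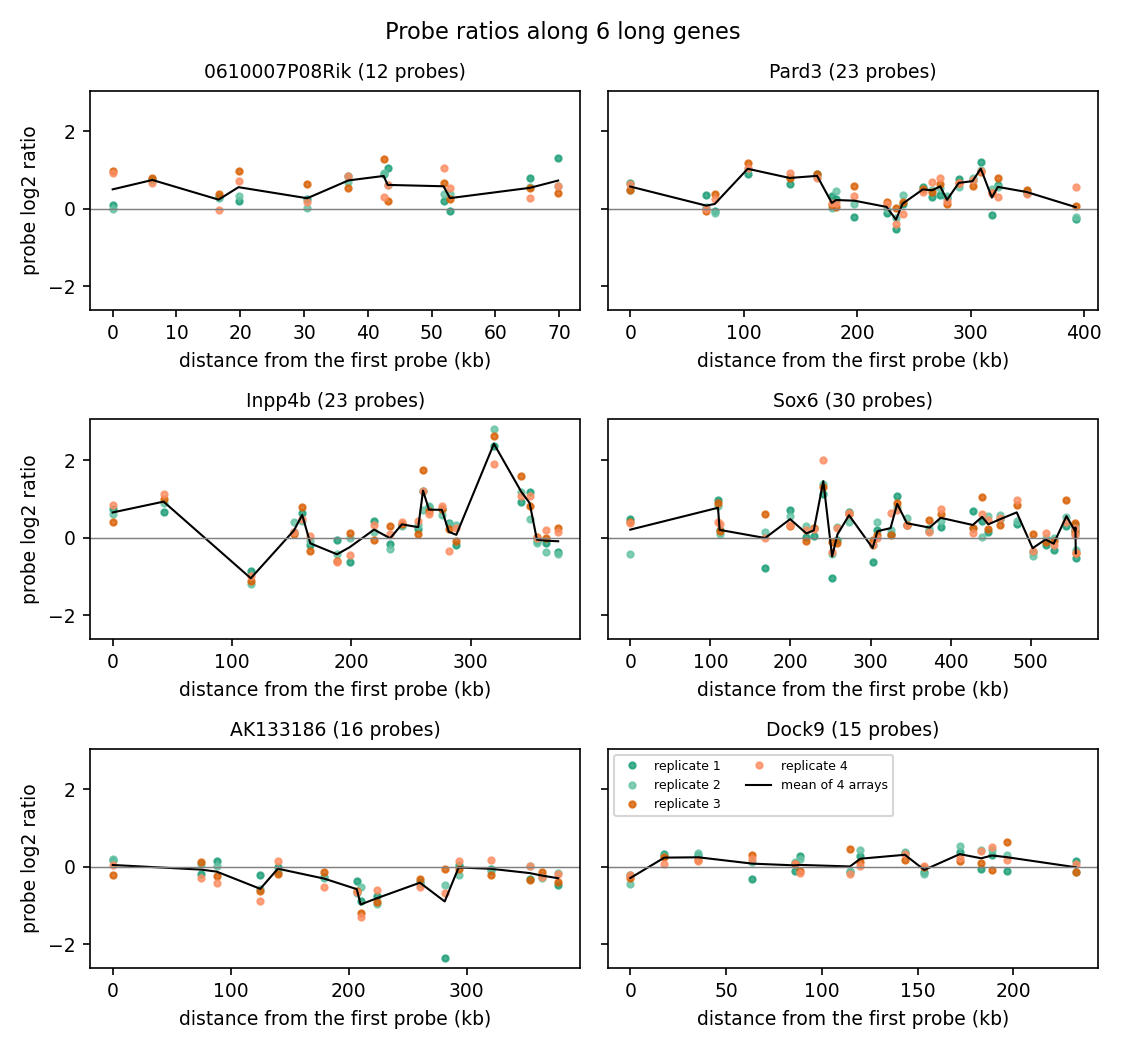
Probe log2 ratios (vertical axis) along 6 long genes by distance from the first probe in kb (horizontal axis), with a point for each array and a line for their mean. The 12 probes of 0610007P08Rik all have means above 0, those of Inpp4b run from -1.04 to 2.42, and those of Dock9 stay within 0.33 of 0.

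Of the 5 genes with the most probes, only Sox6 was called. ENSMUST00000127664 has 41 probes but is spread over 4047 kb with 133 probes of other names between them, and had -0.21, -0.22, -0.26 and -0.09. ENSMUST00000124096, with 30 probes and 67 of other names inside, had a mean of -0.07. Such names do not describe a continuous gene, and M30250, with 912 other probes inside its 23815 kb, is the extreme case. Sox6, Lsamp and Pard3b, each with 30 probes, had no probes of another name inside.

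The share of calls fell with the number of probes. It was 41.8% of names with 1 probe, 34.4% with 2, 26.6% with 3 to 4, 20.5% with 5 to 9 and 11.5% of the 182 with at least 10. Over the same classes the median distance of the mean from 0 went from 0.26 to 0.10, and the median SD over arrays from 0.19 to 0.07. At the limit of the rule, 4 of the 35 names with 10 probes were called, from -0.30 (M73959) to 0.27 (Cacna2d3), and 12 of the 55 names with 9 probes, from -0.49 (AK136471) to 0.68 (Adam18). Without the size limit 33 long genes had an adjusted p under 0.05, 25 higher and 8 lower, beside 39.1% of all names, 18.2% higher and 20.9% lower. Where limma's prior spread followed the number of probes, an alternative chosen after seeing the data, the 84 calls without a size limit were 53 higher and 31 lower. With the size limit the count was again 21, beside 35.5% of all names. How the share of long genes called compares with that of all names thus depends on the size limit and on how the spread is modelled.

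Probes of long genes were at least 0.25 above the pool in 26.5% of cases and at least 0.25 below it in 19.9%, beside 23.7% and 25.7% of other autosomal probes. Of the 2551 probes, 115 were dim in the sample on every array and 22 in the pool. Median GC content was 36.7% in both sets of probes.

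Replicates 1 and 2 lay on one slide and replicates 3 and 4 on another. The difference between slides was called in 0 long genes at an adjusted p under 0.05, as in 0 of all names (0%). At an unadjusted p under 0.05 it was 0 of 177, beside 10.8% of all names, and 25 with the spread modelled by the number of probes, beside 10.5%. The widest differences, named after their values were seen, were those of Anks1b (-0.27 on slide 1 and 0.01 on slide 2) and Plekhg1 (0.16 and -0.09). With slide as a random block all 21 calls remained, and with each slide averaged to a single value 8 remained.

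Of the genes named by the genotype, Map3k7, which encodes TAK1, had ratios of 0.47, 0.68, 0.77 and 0.68 over 2 probes and was called higher than the pool (mean 0.65, limma adjusted p = 0.0019). Ripk3 was not called and had 0.00, -0.04, -0.12 and -0.14. The labels do not say whether these probes lie in the deleted parts, so they check neither label. Over the whole array, the sample signal cleared background at 84.3% to 89.9% of spots and the pool signal at 94.4% to 97.7%. Having 4 arrays limits the precision of every value given. Nothing in the labels ties the samples to separate animals, so p-values cover only how far these 4 samples spread, which may be technical. The single pool leaves the spread between normal livers out of every test.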

How the data were processed

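Genomic DNA was measured on 4 two-colour arrays, 1 group in all. Per the labels' protocols, it came from fixed, embedded sections extracted with a Qiagen kit, and an Enzo kit was used for labelling. The deposited intensity values were written by the scanner software (Agilent Feature Extraction, version 10.10.1.1), which subtracted background and normalised the dyes, and probe positions are on build mm9, per the file headers. The deposited log10 ratios of the scanner served as a check only. A deposited log2 table of the same arrays, with its within-array normalisation unknown, was an alternative.

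The log2 of Cy5 over Cy3 was taken, control and flagged spots were left out, and each array was centred on its autosomal median, with no loess step. Without dye swaps, dye effects remain in the ratios. Limma 3.58.1 in R 4.3.3 (lmFit, eBayes, Benjamini-Hochberg adjustment) tested gene means over all autosomal names, and its SE borrows spread from all of them. Tests of flanks and gene parts covered all names with at least 10 probes. Steps were tested on simulated data.

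Members and lists were chosen with earlier results of these data known. The rule named the 10 highest and 10 lowest called genes, the 5 with the most probes, up to 2 called per list, up to 3 each for slides, flanks and parts, the 3 widest and 3 narrowest over probes, and the 3 nearest 0. In RefSeq (GRCm38.p6, names only), 136 of the 177 names are symbols and 11 are synonyms, and 30 did not match. Alternatives covered the background correction, source table, dim probes, centring, GC content, gene summary, slide, size limit, number of probes, flagged spots and each array left out. Sequences of selected probes only are printed, and 1 gene list is not reported here.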

Additional observations from a re-analysis of the deposited data

How the results depend on the processing

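0610007P08Rik kept its call in all 19 alternatives tried on it, between 0.36 and 0.58, and 0 of the 21 called genes changed sign under any alternative. Counts out of 19 or 20 include alternatives that could not remove a call. The main test without a size limit and the limit of at least 20 probes reuse the same fit. Keeping flagged spots and slide as a random block each kept all 21 calls. Against 15 higher and 6 lower calls (21 in all), normexp gave 5, 1 and 6, the deposited values 11 lower, the mode 9 higher, slide means 7, 1 and 8, a size limit of 0.5 gave 1, 0 and 1, and at least 20 probes 5, 0 and 5 of 23 genes. Chosen after seeing the data, no size limit gave 25 higher and 33 in all, and a spread modelled by the number of probes without a size limit gave 53, 31 and 84. With each replicate left out in turn, higher calls were 10 to 13, lower calls 2 to 4 and all calls 12 to 17. Shares over all names were counted only for own-chromosome centring, no size limit and the modelled spread. Normexp also left 4 calls of 16 against flanks and 12 of 37 between gene parts. The leave-one-out range was 16 to 17 and 29 to 41 for these. The cause was not tested, except that the stricter limits call fewer genes by construction. Normexp was run with an offset of 50, which draws ratios towards 0, while the size limit stayed at 0.25. Under it Dpyd had 0.21 and Nrp1 0.22, below the size limit, at limma adjusted p of 0.0067 and 0.0051. How much of the fall in calls comes from the offset was not tested. Of the 21 calls, the deposited table kept 20, the GC correction 15, the mode 15 and probes well above background 14.

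All 29 changes of sign were in uncalled genes. Pard3b became 0.0482 and Erbb4 0.00658 after own-chromosome centring, which also gave Cacnb4 0.0145 and Cacna1c -0.0124. Probes well above background gave 0.0114 for Agbl4, 0.0362 for Cacnb4, -0.154 for Lhfpl3 and -0.0146 for Cd36. Normexp gave 0.0790 for Agbl4 and -0.0522 for Cd36. Probe medians gave 0.00584 for Agbl4 and -0.173 for Lhfpl3, and leaving out the outer probes 0.00117 for Cacnb4 and -0.137 for Lhfpl3. The deposited values were -0.0995 for Lhfpl3, -0.0120 for Cacna1c and -0.0439 for Cd36. The mode gave -0.0281 for Bai3, -0.0277 for Cacna1c and -0.0256 for Cd36, and the GC correction -0.0345, -0.00242 and -0.00325. With each replicate left out, Pard3b ranged from -0.0655 to 0.00479, Bai3 from -0.0207 to 0.0144, Cacna1c from -0.0172 to 0.0190 and Cd36 from -0.0257 to 0.0235. No paired analysis was possible because there is only 1 group. Dim probes limit depth, since 115 probes of long genes were dim in the sample on every array.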
